A study of Drosophila melanogaster with 16 samples.

Results

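The Drosophila genes followed here belong to the peptidoglycan recognition protein (PGRP) family and the IMD pathway, the main signalling route by which flies respond to bacterial peptidoglycan. The 10 listed genes were PGRP-LB, PGRP-LC, PGRP-LE, PGRP-LF, PGRP-SC2, PGRP-SD, imd, Rel, pirk and key, and a probe set was taken as a member when its only gene symbol in the probe annotation was one of these. Of the 10 genes, 8 had 1 such probe set each, which gave 8 of the 18769 probe sets tested and 8 of the 11982 genes they represent. PGRP-LC and PGRP-SD had no probe set with that symbol alone and are not analysed here.

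In the IMD pathway, peptidoglycan is bound by the receptor PGRP-LC at the cell surface and by PGRP-LE inside the cell, and PGRP-LF, a relative of PGRP-LC that does not bind peptidoglycan, restrains the receptor. Signalling passes through the adaptor imd and an IkappaB kinase complex, whose regulatory subunit is encoded by key (Kenny), to the NF-kappaB factor Relish, encoded by Rel. Relish drives genes of antimicrobial peptides and also genes that limit the response: pirk, which interferes with the receptors, and the amidases PGRP-LB and PGRP-SC2, which cut peptidoglycan into pieces that signal less. In the midgut, where gut bacteria are always present, this negative feedback is known to keep the pathway in check, and PGRP-LE and PGRP-LB are known to act in enterocytes, the absorptive cells of the gut lining.

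The study hybridised total RNA of female midguts to 16 GeneChip arrays, 4 for each genotype. The genotypes were wild type (WT), flies overexpressing gain-of-function Raf, a kinase (RafGOF), flies overexpressing RafGOF with a dominant-negative form of the receptor Notch (RafGOFNotchDN), and flies overexpressing RafGOF with the intracellular domain of Notch (RafGOFNotchIC). Raf acts in the EGF receptor and MAP kinase route that drives intestinal stem cells to divide, and Notch directs the daughters of these cells towards enterocytes. All 3 transgenic groups carry RafGOF, and no group carries a Notch transgene alone. The sources used here give no driver, allele, age of the flies or number of guts per array. Nothing says that the 4 arrays of a group came from separate cultures or crosses, so the p-values below measure only the spread between these arrays, which may be technical. Values are RMA signals on a log2 scale, and levels of the members are compared within a probe set and not between genes. Marker levels set beside the array medians, and list means over several probe sets, are rough descriptions only. In whole midguts, fewer cells of a type and less RNA per cell cannot be told apart.

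The array medians lay between 5.48 and 5.70 (log2 signal), and arrays of one group correlated at 0.979 to 0.995 over all probe sets. The 8 measured enterocyte markers averaged 11.64 to 13.17 over the arrays, and their changes are given below. The 8 fat body markers averaged 6.91 to 8.50 on WT arrays, 6.92 to 7.67 in RafGOF, 6.97 to 7.97 in RafGOFNotchDN and 7.59 to 8.37 in RafGOFNotchIC. Within that list Lsp2, Fbp1 and Fbp2 were at 5.28 to 6.21, close to the array medians, while the yolk protein genes Yp1, Yp2 and Yp3 reached 11.12, 10.58 and 11.09. The 8 hemocyte markers averaged 5.74 to 6.25 over the arrays, with He and eater at 3.67 to 4.29, NimC4 at 6.21 to 8.59 and crq at 8.50 to 10.19. Some arrays stood apart from their group in antimicrobial peptide genes. Mtk, which encodes the peptide metchnikowin, was at 9.66 on RafGOF array 4 against 5.40 to 6.28 on the other RafGOF arrays. It was at 8.58 on RafGOFNotchDN array 4 and at 11.13 on RafGOFNotchIC array 3. The 4 calls of the first comparison below were also made without RafGOF array 4. Arrays with the same number deviated together from their group means, and for the arrays numbered 2 these deviations correlated at 0.528 to 0.726 over all probe sets. Without the arrays numbered 2, the number of members called was unchanged in 5 of the 6 comparisons and fell from 2 to 1 between the Notch groups.

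In RafGOF against WT midguts, both amidase genes, the feedback inhibitor pirk and the intracellular sensor PGRP-LE were lower. The members imd, key, Rel and PGRP-LF did not pass the test. PGRP-SC2 fell 3.92-fold, pirk 3.35-fold, PGRP-LB 2.91-fold and PGRP-LE 1.43-fold. A probe set was called at a limma adjusted p under 0.05, in a fit that left out the array number. By that rule 4 of the 8 members were lower and 0 higher, whereas 7.85% of all probe sets were called lower and 11.2% higher, 19.1% in all. The median change of the 8 members was -0.46 (log2), and that of all probe sets was -0.02. In 3 of the 8 members every RafGOF array lay below every WT array, as did 8.85% of all probe sets. The 4 calls were made under each of the 17 alternative settings tried.

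**Figure D1:**
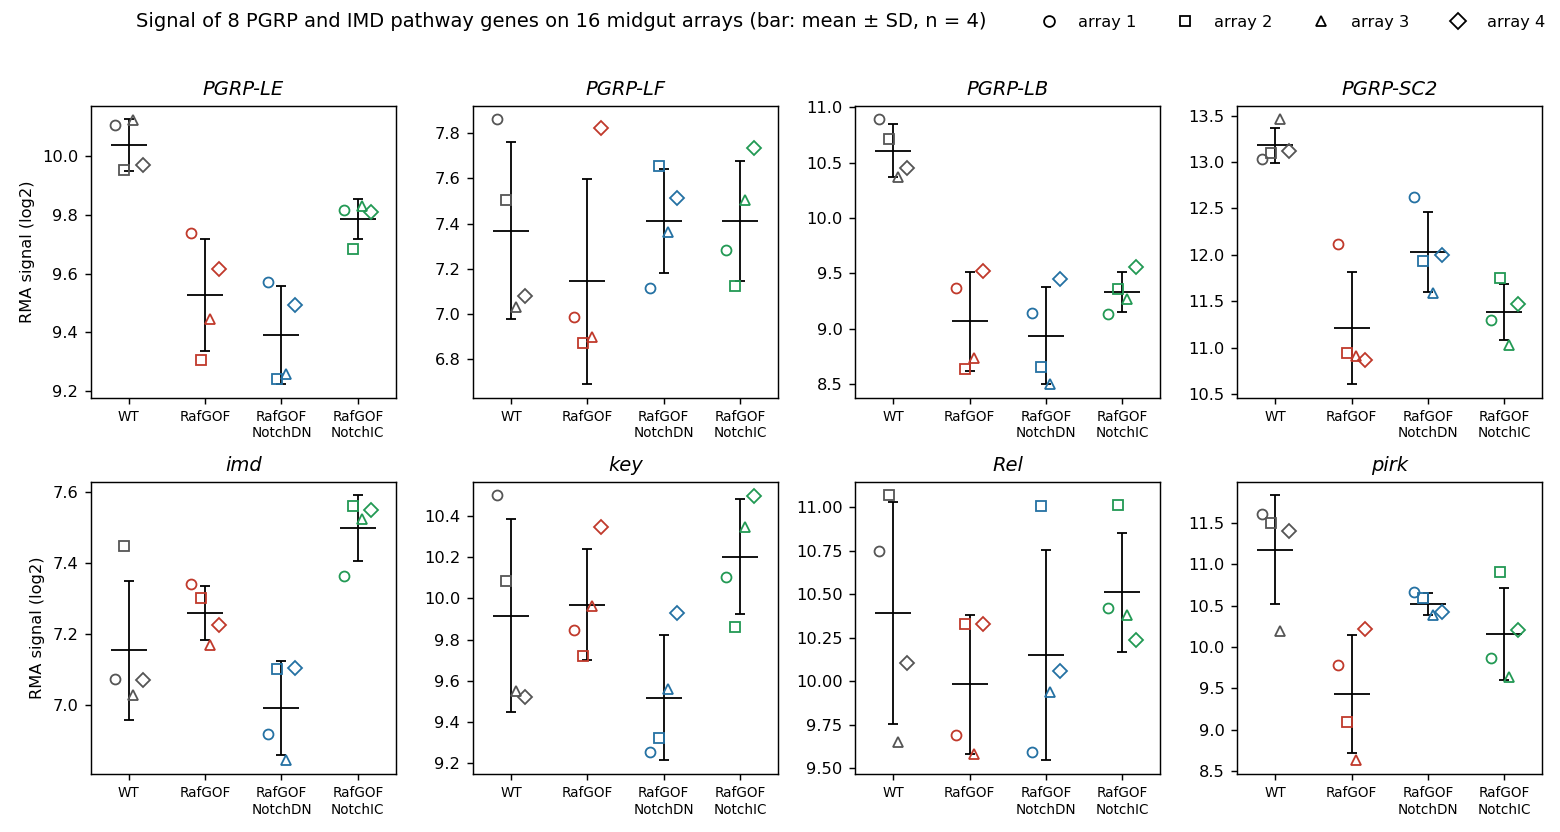
Log2 RMA signal of the 8 member probe sets, 1 panel per gene, with a point for each of the 4 arrays of each group and a bar at the group mean with the SD. For PGRP-LB, PGRP-SC2 and PGRP-LE the WT points lie above those of RafGOF and RafGOFNotchDN, while for Rel, key and PGRP-LF the groups overlap.

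Of the members, the amidase gene PGRP-SC2 changed most in RafGOF against WT. Its log2 signal on WT arrays 1 to 4 was 13.03, 13.10, 13.46 and 13.12, and on RafGOF arrays 12.11, 10.95, 10.90 and 10.87. With NotchDN added it was 12.62, 11.93, 11.59 and 12, and with NotchIC added 11.30, 11.75, 11.02 and 11.47. All 12 transgenic arrays were below all WT arrays, and array 1 was the highest of its group in both RafGOF and RafGOFNotchDN. The change was -1.97 ± 0.264 (log2 ± SE, 4 arrays a group) in RafGOF against WT, with a limma adjusted p of 7.69e-05. It was -1.79 in RafGOFNotchIC (3.47-fold, limma adjusted p = 0.000435) and -1.15 in RafGOFNotchDN (2.21-fold, limma adjusted p = 0.00471). The order of the group means was WT, RafGOFNotchDN, RafGOFNotchIC and RafGOF, and neighbours below WT did not pass the test against each other.

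PGRP-LB encodes an amidase with secreted and intracellular forms that a 3' probe set need not separate. Its WT arrays read 10.89, 10.71, 10.37 and 10.45, and its RafGOF arrays 9.37, 8.64, 8.74 and 9.53. RafGOFNotchDN arrays read 9.14, 8.66, 8.50 and 9.45, and RafGOFNotchIC arrays 9.13, 9.36, 9.27 and 9.56. The WT arrays stood above the other 12 arrays, and the 3 transgenic groups overlapped one another. Against WT the change was -1.54 ± 0.224 in RafGOF (limma adjusted p = 0.000146), -1.67 in RafGOFNotchDN (3.18-fold, limma adjusted p = 4.83e-05) and -1.28 in RafGOFNotchIC (2.42-fold, limma adjusted p = 0.00157). Between the transgenic groups the differences were -0.13 for RafGOFNotchDN minus RafGOF, 0.26 for RafGOFNotchIC minus RafGOF and -0.39 for RafGOFNotchDN minus RafGOFNotchIC, none of which passed.

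PGRP-LE, the sensor inside the cell, changed less in size but had little spread. Its WT arrays were at 10.11, 9.95, 10.12 and 9.97, and its RafGOF arrays at 9.74, 9.30, 9.45 and 9.62. RafGOFNotchDN arrays were at 9.57, 9.24, 9.26 and 9.49, and RafGOFNotchIC arrays at 9.82, 9.68, 9.83 and 9.81. WT was highest throughout, RafGOFNotchIC came next and lay above every RafGOFNotchDN array, and RafGOF overlapped both of its neighbours. The change against WT was -0.51 ± 0.104 in RafGOF (95% interval -0.73 to -0.29, limma adjusted p = 0.00225) and -0.65 in RafGOFNotchDN (1.57-fold, limma adjusted p = 0.000259). In RafGOFNotchIC it was -0.25 and did not pass (limma adjusted p = 0.137), although no array of either group overlapped. PGRP-LF, the receptor's antagonist, ranged over 6.87 to 7.86 on the 16 arrays. Its groups overlapped, and its change in RafGOF against WT was -0.23 (95% interval -0.70 to 0.25, limma adjusted p = 0.588).

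The feedback inhibitor pirk had the largest spread within groups of the 8 members when pooled over the groups (residual SD 0.561). Its SD was 0.709 in RafGOF but 0.132 in RafGOFNotchDN. It read 11.61, 11.49, 10.20 and 11.41 on WT arrays and 9.79, 9.10, 8.63 and 10.22 on RafGOF arrays. It read 10.66, 10.59, 10.39 and 10.42 on RafGOFNotchDN arrays and 9.87, 10.91, 9.64 and 10.21 on RafGOFNotchIC arrays. WT array 3 lay just below RafGOF array 4, so the groups overlapped by that pair, and all RafGOFNotchDN arrays lay above all RafGOF arrays. In RafGOF against WT pirk changed by -1.74 ± 0.355 (95% interval -2.50 to -0.99, limma adjusted p = 0.00225), and by -2.07 without WT array 3 (limma adjusted p = 0.000527). Against WT its change was -0.66 in RafGOFNotchDN (limma adjusted p = 0.251) and -1.02 in RafGOFNotchIC (limma adjusted p = 0.0750). Without WT array 3 both of these passed, at limma adjusted p of 0.04995 and 0.0174, and without RafGOFNotchIC array 2 the second passed at 0.0268. On WT array 3 some fat body markers were low too. There apolpp was at 5.77 against 7.996 to 9.34 on the other WT arrays, and Yp1 at 8.01 against 10.20 to 11.10. Yp2 was at 7.26 against 9.50 to 10.58 and Yp3 at 8.31 against 10.09 to 11.09. Other fat body markers were not low: fon was at 8.345 against 7.51 to 8.66, and Fbp1 at 5.98 against 5.61 to 6.16. Fbp2 was at 5.65 against 5.55 to 5.66, and Lsp2 at 5.93 against 5.94 to 6.01. The part of fat body in the level of pirk was not tested.

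The adaptor imd differed little from WT in RafGOF. Its values were 7.07, 7.45, 7.03 and 7.07 on WT arrays, 7.34, 7.30, 7.17 and 7.23 on RafGOF arrays, 6.92, 7.10, 6.84 and 7.10 on RafGOFNotchDN arrays, and 7.36, 7.56, 7.52 and 7.55 on RafGOFNotchIC arrays. RafGOFNotchIC was above every RafGOF and every RafGOFNotchDN array, and WT overlapped all 3 groups, with WT array 2 well above the other WT arrays. In RafGOFNotchIC imd was 0.34 ± 0.101 (log2) above WT, or 1.27-fold, with a limma adjusted p of 0.0353. That call was lost without WT array 1, 3 or 4 and without RafGOFNotchIC array 2, 3 or 4 (limma adjusted p up to 0.107). In RafGOF the change against WT was 0.10 (95% interval -0.11 to 0.32, limma adjusted p = 0.572).

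The kinase subunit key and the transcription factor gene Rel were not called in any of the 6 comparisons by limma. At an unadjusted p under 0.05 there was 1 such result, key between the Notch groups. The share of all probe sets at an unadjusted p under 0.05 is not given here, for this or other comparisons and lists. Counts at that level can therefore not be set against such a share. The gene key was at 9.52 to 10.50 on WT arrays, 9.72 to 10.35 in RafGOF, 9.26 to 9.93 in RafGOFNotchDN and 9.86 to 10.50 in RafGOFNotchIC. Rel was at 9.65 to 11.07 in WT, 9.58 to 10.33 in RafGOF, 9.59 to 11 in RafGOFNotchDN and 10.24 to 11.01 in RafGOFNotchIC. In both genes the groups overlapped in every comparison. For RafGOF minus WT the 95% interval was -0.41 to 0.52 for key and -1.10 to 0.28 for Rel, so that a fall in Rel as large as that of PGRP-LE lies inside its interval.

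The array number went with the level of several members. Rel was above its group mean on array 2 of all 4 groups, by 0.35 to 0.86 (log2), and below it on array 3 of all 4. On the arrays numbered 3, pirk and PGRP-LB were also below the group mean in all 4 groups, and PGRP-LE was above it on the arrays numbered 1 and below it on those numbered 2. The spread within groups (residual SD) was 0.561 for pirk and 0.512 for Rel, against 0.138 for PGRP-LE and 0.132 for imd, and the median over all probe sets was 0.184. The labels do not say what the numbers stand for. PGRP-LF and key deviated together, with a Pearson r of 0.834 between their deviations from the group means over the 16 arrays, which share the group fit.

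**Figure D2:**
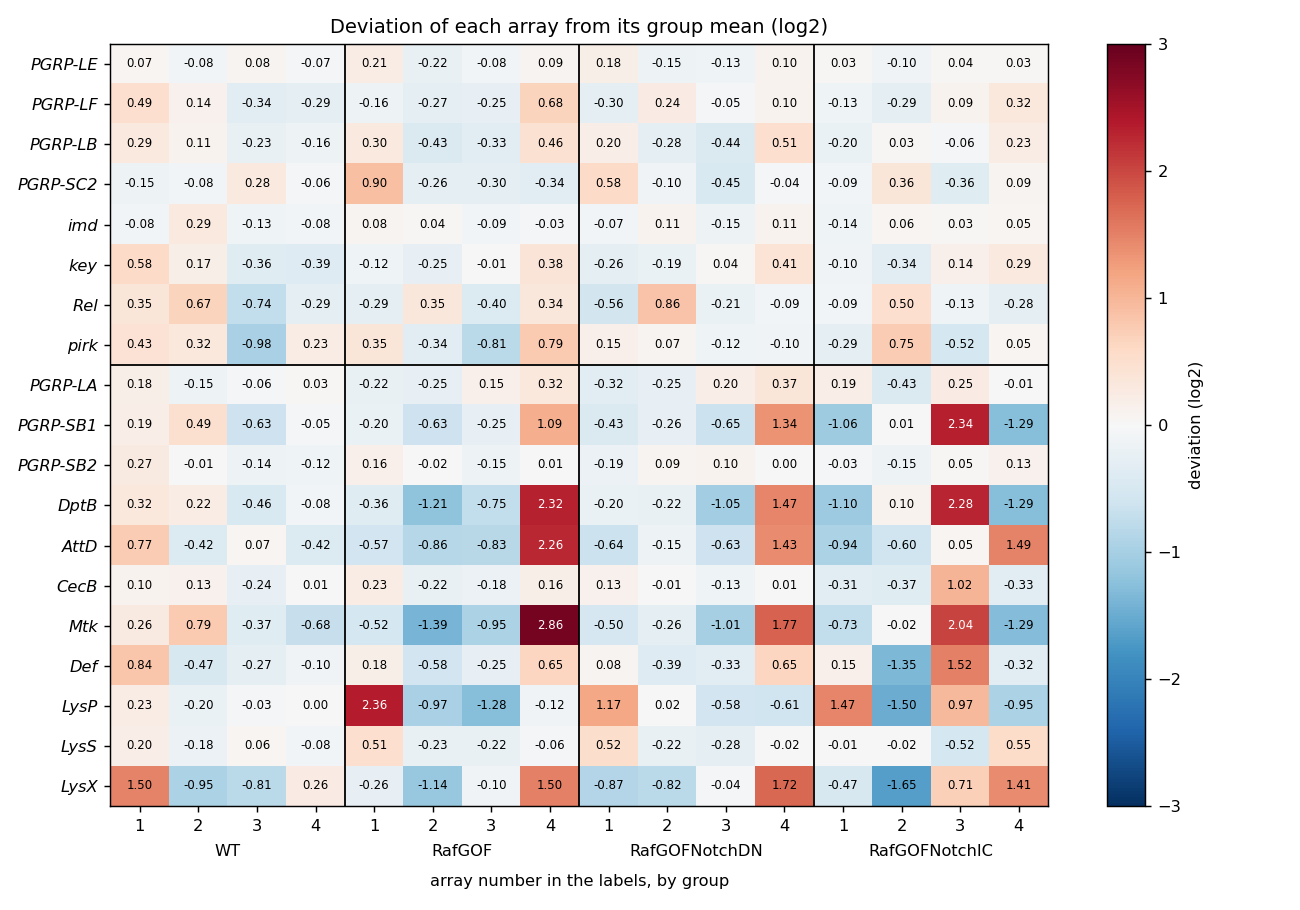
Deviation of each array from its group mean (log2) for the 8 members and the other measured PGRP, antimicrobial peptide and lysozyme genes, by group and array number. Rel is positive on the 4 arrays numbered 2, and Mtk, DptB and AttD are highest on RafGOF array 4.

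Adding NotchDN to RafGOF gave 0 called members of 8 by limma in the comparison with RafGOF alone, in which 1.09% of all probe sets were called. At an unadjusted p under 0.05 there were 3, namely pirk, PGRP-SC2 and imd, a count with no share of all probe sets to compare. The inhibitor pirk was 1.08 higher (log2, limma adjusted p = 0.242) and imd fell by 0.27 in the mean (limma adjusted p = 0.373), and in both all 4 arrays of one group lay beyond those of the other. Such separation held for 2 of 8 members and for 4.09% of all probe sets. With the replicate number as a block pirk passed (limma adjusted p = 0.0355). PGRP-SC2 was 0.83 higher (limma adjusted p = 0.220), and without RafGOF array 1 it was 1.13 higher and passed (limma adjusted p = 0.0185). The median over the members was 0.02 and over all probe sets 0.01.

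Adding NotchIC to RafGOF also gave 0 called members by limma, against 2.34% of all probe sets. At an unadjusted p under 0.05 there were 2, again with no share of all probe sets to compare. All 8 differences were above 0, from 0.18 for PGRP-SC2 to 0.72 for pirk (limma adjusted p = 0.464), with a median of 0.26 against -0.01 over all probe sets. Only imd had every RafGOFNotchIC array above every RafGOF array, as did 2.6% of all probe sets. Its difference was 0.24 (limma adjusted p = 0.348). That of PGRP-LE was 0.26 (limma adjusted p = 0.309).

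Between the Notch transgenes, imd and PGRP-LE were lower with NotchDN than with NotchIC. The 2 called members were both lower, where 8.72% of all probe sets were called and 4.09% were called lower. The difference in imd was -0.51 ± 0.101 (log2), or 1.42-fold, with a limma adjusted p of 0.00471, and it passed under each of the 17 alternatives. PGRP-LE differed by -0.40 ± 0.104, or 1.32-fold (limma adjusted p = 0.0267). Its call was lost without RafGOFNotchDN array 2 or 3 and without RafGOFNotchIC array 1, 3 or 4 (limma adjusted p up to 0.0983). In both genes the groups did not overlap, as held in this direction for 5.69% of all probe sets. The kinase subunit key was at -0.69 (limma adjusted p = 0.0688), and passed with the replicate number as a block (limma adjusted p = 0.0402) and without RafGOFNotchDN array 4 (0.0395).

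Against WT, RafGOFNotchDN had 3 members called lower and 0 higher, among 20.4% of all probe sets called and 9.28% called lower and 11.2% higher. RafGOFNotchIC had 2 called lower and 1 higher, among 12.7% of all probe sets called, 5.24% lower and 7.5% higher. In each of these comparisons 3 members had all transgenic arrays below all WT arrays, as did 10.2% and 7.51% of all probe sets. The 3 comparisons with WT share the same 4 WT arrays, so their values for a gene are not independent of one another. The median over the members was -0.52 with NotchDN and -0.11 with NotchIC, and over all probe sets -0.02 and -0.03.

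**Figure D3:**
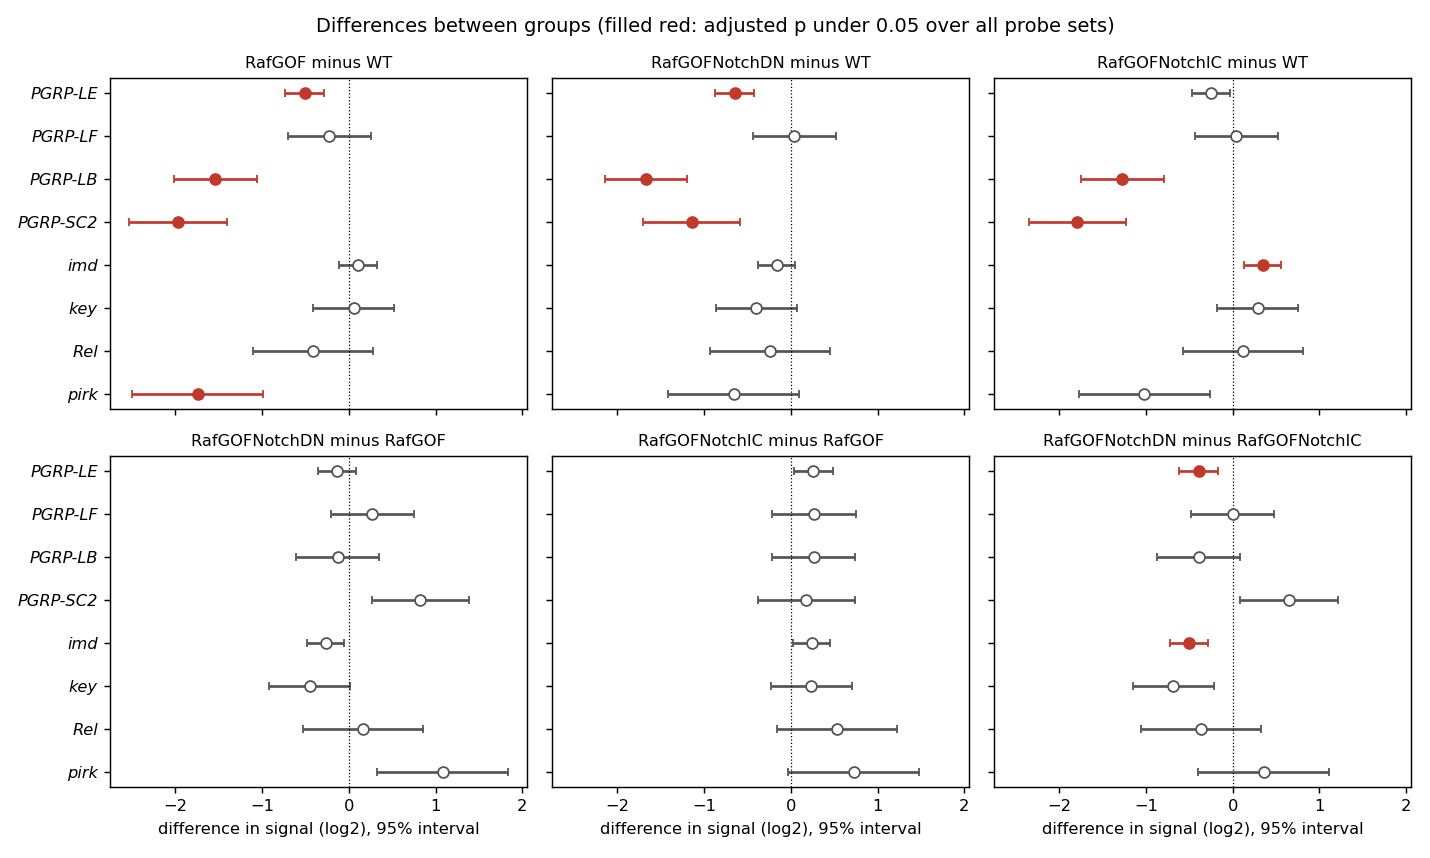
Log2 difference of each member in the 6 comparisons with its 95% interval, filled where the limma adjusted p was under 0.05. PGRP-SC2 and PGRP-LB are filled and below 0 in all 3 comparisons with WT, and no member is filled when a Notch group is compared with RafGOF.

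Cell type markers moved in the same comparisons. Against WT, 7.85% of all probe sets were called lower in RafGOF, 9.28% in RafGOFNotchDN and 5.24% in RafGOFNotchIC. The shares called higher were 11.2%, 11.2% and 7.5%. Of 8 measured enterocyte markers, 4 were called lower and 0 higher in RafGOF against WT, 3 lower in RafGOFNotchDN and 1 lower in RafGOFNotchIC. The mean of this list was 13.06 to 13.17 on WT arrays, 11.64 to 11.79 in RafGOF, 11.78 to 12.07 in RafGOFNotchDN and 12.39 to 12.92 in RafGOFNotchIC. By group the mean was 13.12 in WT, 12.6 in RafGOFNotchIC, 11.92 in RafGOFNotchDN and 11.72 in RafGOF. Of the members called lower in RafGOF, PGRP-LB and PGRP-LE had their lowest mean in RafGOFNotchDN, whereas PGRP-SC2 and pirk had theirs in RafGOF and were lower in the mean with NotchIC than with NotchDN. The 4 called enterocyte markers changed in RafGOF by -6.05 (LManIII, a mannosidase gene), -3.10 (Jon25Bi), -1.24 (Mal-A1) and -0.88 (betaTry). LManIII, which enters the list means above, varied most between groups. Its means were 10.97 in WT, 4.92 in RafGOF, 5.65 in RafGOFNotchDN and 9.95 in RafGOFNotchIC. The other 4 enterocyte markers were not called in RafGOF. Of these, mex1 was at 12.50 in WT and in RafGOF, nub at 10.86 and 11.16, and Jon65Aiii at 14.56 and 14.46. The last of them, alphaTry, was near the top of the scale on every array at 14.38 to 14.69. The 5 progenitor markers were all called higher in RafGOF, 4 in RafGOFNotchDN and 3 in RafGOFNotchIC, with list means of 6.92 to 7.22 in WT, 8.26 to 8.99 in RafGOF, 8.42 to 9.38 in RafGOFNotchDN and 7.91 to 8.19 in RafGOFNotchIC. Their part in the changes of the member genes was not tested.

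Markers of enteroendocrine cells, and of tissues other than the gut lining, also differed in places. The shares of all probe sets given above apply to these counts too. Of 6 visceral muscle markers 4 were called lower in RafGOF, 4 in RafGOFNotchDN and 3 in RafGOFNotchIC against WT, and of 5 Malpighian tubule markers 3, 2 and 1. The muscle list mean was 9.75 to 10.06 in WT, 9.01 to 9.38 in RafGOF, 8.87 to 9.11 in RafGOFNotchDN and 9.11 to 9.49 in RafGOFNotchIC. The tubule list mean was 9.06 to 10.02 in WT, 8.27 to 8.93 in RafGOF, 8.32 to 9 in RafGOFNotchDN and 8.95 to 10.07 in RafGOFNotchIC. Of 6 enteroendocrine markers, 3, 3 and 5 were called lower, with list means of 8.52 to 8.82 in WT, 7.71 to 8.35 in RafGOF, 7.71 to 8.34 in RafGOFNotchDN and 6.68 to 7.89 in RafGOFNotchIC. Of 8 fat body markers only fon was called, lower in RafGOF and in RafGOFNotchDN. Of 8 hemocyte markers NimC4 was called lower in all 3 groups and Pxn higher in RafGOFNotchIC. The part of these cells and tissues in the member genes was not tested.

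Signalling genes of the pathway outside the members were mostly higher where they were called. Of 12 measured, 6 were higher and 1 lower in RafGOF against WT, where the members had 0 higher and 4 lower. Over all probe sets 11.2% were called higher there and 7.85% lower. The higher ones were Jra (1.10, log2), akirin (1.08), kay (0.82), ird5 (0.67), Fadd (0.45) and Uev1A (0.44). Jra and kay encode the AP-1 proteins Jun and Fos, which also serve other routes, akirin a nuclear cofactor of Relish, ird5 the catalytic IkappaB kinase, Fadd an adaptor and Uev1A a ubiquitin-conjugating factor. Tab2, which encodes a partner of the kinase Tak1, was lower, at -0.47 (limma adjusted p = 0.0104). The call of kay was lost without WT array 2 or 3 and without RafGOF array 2, 3 or 4 (limma adjusted p up to 0.124), and that of Uev1A without RafGOF array 4 (0.0546). With the replicate number as a block 8 were called, Diap2 being added (limma adjusted p = 0.0149), which also passed without RafGOF array 1 (0.0275). The share of all probe sets called with the block is not given here, for this or other comparisons.

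The gene akirin was at 9.59 to 10.29 in WT, 10.99 to 11.28 in RafGOF, 10.96 to 11.51 in RafGOFNotchDN and 10.75 to 11.13 in RafGOFNotchIC. All transgenic arrays lay above all WT arrays, and the transgenic groups overlapped. Its change against WT was 1.08, 1.2 and 0.93 in these groups, with limma adjusted p of 0.000155, 4.09e-05 and 0.00130. In RafGOFNotchDN 4 signalling genes were higher (akirin, Jra, Fadd and Uev1A) and 1 lower (Tab2), and in RafGOFNotchIC 4 were higher (akirin, Jra, ird5 and Fadd) and 0 lower. The shares of all probe sets called higher and lower were 11.2% and 9.28% with NotchDN, and 7.5% and 5.24% with NotchIC. The call of Uev1A in RafGOFNotchDN was lost without WT array 2 and without RafGOFNotchDN array 3 or 4 (limma adjusted p up to 0.0755). Tab2 was also -0.66 (limma adjusted p = 0.00237) in RafGOFNotchDN against RafGOFNotchIC, where it was the 1 called signalling gene. Of all probe sets 8.72% were called there. With the replicate number as a block 5 signalling genes were called. Without RafGOFNotchDN array 2 or 4 or RafGOFNotchIC array 2 there were 2. Against RafGOF, 0 of the 12 passed by limma with either Notch transgene, with or without the block, and 3 with NotchDN and 2 with NotchIC did at an unadjusted p under 0.05.

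A further list of 11 genes, sick among them, was named other negative regulators, but the role of each gene was not checked here. Of these 11, 3 were higher and 1 lower in RafGOF against WT. The shares of all probe sets called so were 11.2% and 7.85%. The deubiquitinase genes scny (1.35, limma adjusted p = 0.00113) and Uch (0.92, limma adjusted p = 0.00149) and RYBP (0.62, limma adjusted p = 0.0277) were higher. The gene cad, which encodes Caudal, a homeodomain factor that represses antimicrobial peptide genes in the gut, changed by -1.06 (limma adjusted p = 0.000648). Its signal was 9.69 to 10.47 in WT and 8.82 to 9.29 in RafGOF, without overlap. With the replicate number as a block 6 were called, dnr1 (limma adjusted p = 0.0296) and POSH (0.0214) being added. In RafGOFNotchDN 2 were higher (Uch and RYBP) and 1 lower (cad), among 11.2% and 9.28% of all probe sets. There 8 of the list were called with the replicate number as a block. In RafGOFNotchIC 2 were higher (scny and Uch) and 1 lower (cad), among 7.5% and 5.24% of all probe sets. Between the Notch groups scny was -0.90 with NotchDN (limma adjusted p = 0.0362), and 4 were called with the block. Against RafGOF 0 passed by limma with either Notch transgene and 1 each did at an unadjusted p under 0.05, while with the block 2 passed with NotchDN and 1 with NotchIC.

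Some of these calls rested on single arrays. That of RYBP was lost in RafGOF without WT array 1 or 3 or RafGOF array 2 (limma adjusted p up to 0.0937). In RafGOFNotchDN it was lost without WT array 1 or 3 or RafGOFNotchDN array 2, 3 or 4 (up to 0.114). The call of cad in RafGOFNotchIC was lost without WT array 2 or 4 or RafGOFNotchIC array 1 or 3 (up to 0.0966). In RafGOFNotchDN against WT the number called ran from 2 to 5 with 1 array left out, and was 5 without RafGOFNotchDN array 1. The call of scny between the Notch groups was lost without RafGOFNotchDN array 1 or 3 or RafGOFNotchIC array 2, 3 or 4 (up to 0.114).

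**Figure D4:**
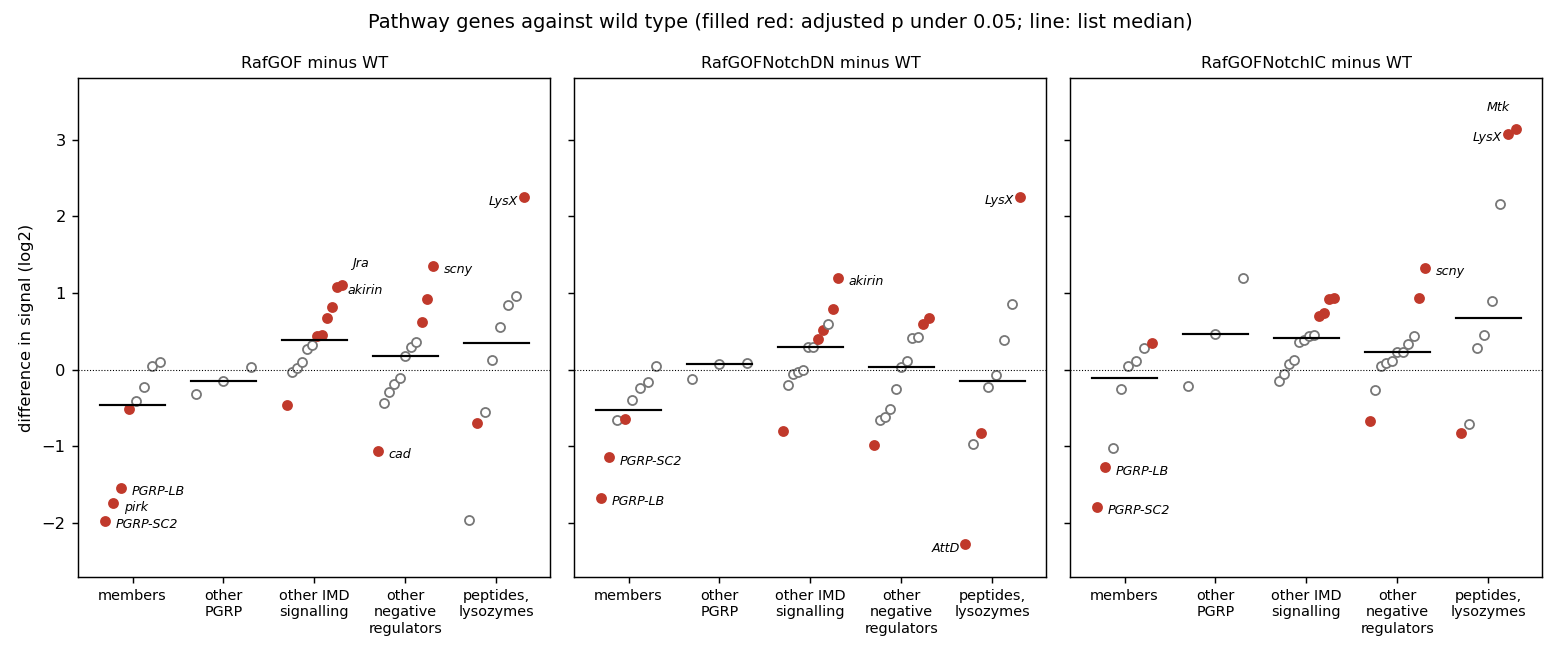
Log2 change against WT of the members and of each measured gene of the pathway lists in the 3 transgenic groups, filled where the limma adjusted p was under 0.05, with a line at the list median. The signalling list has more filled points above 0 than below, and Mtk is filled only with NotchIC.

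The 3 other measured PGRP genes, PGRP-LA, PGRP-SB1 and PGRP-SB2, gave 0 calls by limma in all 6 comparisons. At an unadjusted p under 0.05 there were 2 in RafGOFNotchIC against RafGOF and 1 in RafGOFNotchIC against WT, and without RafGOFNotchIC array 2 the latter, PGRP-LA, passed. PGRP-SB1, an amidase gene induced by infection, was 1.51 (log2) higher in RafGOFNotchIC than in RafGOF (limma adjusted p = 0.365). Its 4 RafGOFNotchIC arrays read 7.04, 8.11, 10.44 and 6.82, so that difference was carried mainly by array 3. In the RefSeq annotation of Drosophila assembly Release 6, PGRP-LF lies on arm 3L next to PGRP-LC, whose other neighbour is PGRP-LA. PGRP-SC2 lies on arm 2R next to PGRP-SC1b. Whether the PGRP-SC2 probes also read its close relatives could not be checked without probe sequences.

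Of the 20 listed antimicrobial peptide and lysozyme genes, effectors against bacteria, 8 were measured, and their calls depended on single arrays. LysX, a lysozyme gene, was 2.25 (log2) higher in RafGOF than in WT (limma adjusted p = 0.0480), and LysS was at -0.70 (limma adjusted p = 0.0379). LysX was 7.44 to 9.89 on WT arrays and 9.49 to 12.14 on RafGOF arrays, so the groups overlapped. The number called was 2 in RafGOF, 3 in RafGOFNotchDN and 3 in RafGOFNotchIC against WT, and with 1 array left out it ran from 0 to 1, 0 to 2 and 0 to 3. Over all probe sets 19.1%, 20.4% and 12.7% were called in these comparisons. For RafGOF, the call of LysX was lost without WT array 2, 3 or 4 or RafGOF array 1, 3 or 4 (limma adjusted p up to 0.150). That of LysS was lost without WT array 1, 3 or 4 or RafGOF array 2, 3 or 4 (up to 0.110).

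AttD, which encodes attacin D, was 7.98 to 9.17 on WT arrays and 5.88, 5.59, 5.61 and 8.71 on RafGOF arrays. Array 4 alone lay within the WT range, and the change was -1.95 (limma adjusted p = 0.0574), or -2.71 without that array (limma adjusted p = 0.00286). With the replicate number as a block AttD passed (limma adjusted p = 0.00786). In RafGOFNotchDN AttD read 5.48, 5.97, 5.49 and 7.55, a change of -2.28 (limma adjusted p = 0.0249). That call was lost without WT array 1 or 3 or RafGOFNotchDN array 1, 2 or 3 (up to 0.0781). LysX was called there too (2.25, limma adjusted p = 0.0448), as was LysS (-0.82, limma adjusted p = 0.0138). The call of LysX was lost without WT array 2, 3 or 4 or RafGOFNotchDN array 3 or 4 (up to 0.160) and that of LysS without RafGOFNotchDN array 3 (0.0521).

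With NotchIC, Mtk read 8.36, 9.08, 11.13 and 7.81, against 6.21, 6.74, 5.59 and 5.27 in WT. All 4 arrays were above WT, by 3.14 on average (log2, limma adjusted p = 0.0264). The call was lost without WT array 3 or 4 or RafGOFNotchIC array 3 (up to 0.104). LysX was also called (3.07, limma adjusted p = 0.0130, or 0.0504 without RafGOFNotchIC array 3), as was LysS at -0.83 (limma adjusted p = 0.0216), whose call was lost without WT array 1 or 3 or RafGOFNotchIC array 1 or 3 (up to 0.0858). In RafGOFNotchIC against RafGOF none of the 8 passed by limma and 1 did at an unadjusted p under 0.05, and Mtk passed without RafGOF array 4 (limma adjusted p = 0.0267). In RafGOFNotchDN against RafGOFNotchIC 0 passed, 5 did at an unadjusted p under 0.05, 2 passed with the block and 1 without RafGOFNotchIC array 2. Shares of all probe sets for the unadjusted p and for the block are not given. On the arrays where these peptide genes were high the members did not move as one. On RafGOF array 4, pirk was 0.79, PGRP-LF 0.68 and PGRP-LB 0.46 above the group mean, whereas on RafGOFNotchIC array 3, pirk was at -0.52 and PGRP-SC2 at -0.36 from it.

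As a description, the genes whose signal tracked a member most closely over the 16 arrays were found by Pearson correlation, which the 4 groups shape. For PGRP-SC2 they were Jon44E (r = 0.976), lambdaTry (0.942) and Jon66Ci (0.927), all genes of serine proteases. Jon44E also followed PGRP-SC2 within groups, with r = 0.918 between deviations from the group means. For PGRP-LB they were AANATL3 (0.923), the serine protease gene Jon25Bi (0.922) and the ferritin subunit gene Fer2LCH (0.921). For PGRP-LE they were Zasp66 (0.974), Marc (0.962) and AANATL2 (0.948). Those of imd were Tmep (0.922), Msp300 (0.888) and Pde1c (0.881), and those of pirk reached only 0.828 (Csk), 0.825 (glob3) and 0.820 (tutl). Among the members themselves the highest r was 0.887, between PGRP-LB and PGRP-LE, followed by 0.761 between PGRP-LB and PGRP-SC2 and 0.731 between PGRP-SC2 and pirk.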

How the data were processed

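Per the labels, total RNA was extracted from female midguts with Trizol and biotinylated with a 3'IVT labelling kit. The deposited values are RMA signals, per the submitters' processing notes, and lie on the log2 scale. The sources used here give no RMA software, version or genome build. Of 18952 probe sets, 183 controls were set aside and 18769 tested. Of these, 13647 had 1 gene symbol, 402 several and 4720 none in the probe annotation, and the brightest probe set stood for a gene. Only the members, list genes called in at least 1 comparison and the 3 most correlated genes of each called member were to be named. LManIII, alphaTry, mex1, nub, Jon65Aiii and the marker and peptide genes used to describe arrays were named after their values were seen. So were PGRP-SB1, PGRP-LA, Diap2, dnr1 and POSH, which gave no call in the fit described below.

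Group means of each probe set were estimated from the 16 arrays together in limma 3.58.1 (R 4.3.3), with default empirical Bayes moderation (12 residual degrees of freedom) and Benjamini-Hochberg adjustment over all 18769 probe sets in each of 6 comparisons, two-sided. Intervals are 95% and cover the spread between arrays, and 4 arrays a group limit the precision. The procedure was also run on simulated data with independent noise for each array. That run cannot show what leaving out the array number does. The members and all lists were chosen with earlier results of these data known.

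Whether equal replicate numbers pair the arrays was checked on deviations from the group means. The correlations of same-numbered arrays were 0.127 to 0.594 for RafGOF and WT, 0.494 to 0.785 for RafGOFNotchDN and RafGOF, 0.104 to 0.528 for RafGOFNotchIC and RafGOF, 0.157 to 0.529 for RafGOFNotchDN and RafGOFNotchIC, and 0.155 to 0.668 for RafGOFNotchDN and WT. All were over 0.1, so the numbers were taken as pairing these groups. For RafGOFNotchIC and WT the correlations were 0.0489 to 0.574, all positive, but the lowest was under 0.1, so that rule was not met. The fit behind the calls still left the numbers out, so those calls ignore this pairing. The numbers enter only in the block, an alternative. The pairing rests on the data, since the labels do not explain the numbers. Alternatives were another scaling, filters on dim probe sets, other moderation, array weights, fits of the compared groups alone, the replicate block and leaving out arrays.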

Additional observations from a re-analysis of the deposited data

Results flagged for a closer look

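In 5 of the 32 sets formed by a member and a group, 1 of the 4 arrays lay far from the others by Dixon's test, where chance alone flags about 1 set in 20. PGRP-SC2 was at 12.11 (log2 signal) on RafGOF array 1, and without that array its change against WT was -2.27 (limma adjusted p = 6.04e-06). The inhibitor gene pirk was at 10.20 on WT array 3, below the other WT arrays. The fat body markers apolpp, Yp1, Yp2 and Yp3 were also lowest of the WT arrays there, while fon, Fbp1 and Fbp2 were not. PGRP-LF was at 7.82 on RafGOF array 4, the array on which Mtk, DptB and AttD were also the highest of their group. The adaptor gene imd was at 7.45 on WT array 2, above the other WT arrays. PGRP-LE was at 9.68 on RafGOFNotchIC array 2, below the other arrays of its group.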

How the results depend on the processing

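Each member's change was recomputed under 17 alternatives per comparison, 816 values in all, of which 782 kept their direction where called and their side of the threshold, 18 lost a call, 16 gained one and 0 called values changed sign. Against WT, 4 members were called in RafGOF under every alternative and 3 or 4 in RafGOFNotchDN. For RafGOFNotchDN against RafGOF the count of 0 became 3 with array weights (PGRP-SC2, imd and pirk), 1 with the replicate block (pirk), and 0 to 1 with arrays left out in turn. The weights favoured array 3 of RafGOF (4.58) and of RafGOFNotchDN (4.31). For RafGOFNotchIC against RafGOF the count of 0 became 1 with array weights (PGRP-LE). For RafGOFNotchDN against RafGOFNotchIC the count of 2 became 1 with quantile normalisation, with trended and robust moderation, without replicate 2 of every group and with only the compared groups in the fit, and 3 (key added) with the log2 6 filter, array weights and the replicate block, and ran from 1 to 3 with arrays left out. PGRP-LE lost this call under 9 of 17 alternatives (limma adjusted p up to 0.212). For RafGOFNotchIC against WT the count of 3 became 5 with the replicate block, and ran from 2 to 3 with arrays left out. The block added PGRP-LE (limma adjusted p = 0.0380) and pirk (0.0128). Correlations of same-numbered arrays were positive in these groups, but the lowest (0.0489) missed the limit set for pairing. The gain of imd was lost under 9 of 17 (up to 0.147). The block changed no other member's call beyond those given here and in the report. Over all probe sets the called number ranged under the alternatives from 2888 to 6129 (main value 3578) for RafGOF against WT, 27 to 1312 (204) and 114 to 1326 (440) for RafGOFNotchDN and RafGOFNotchIC against RafGOF, 989 to 3500 (1637) between the Notch groups, 3080 to 6066 (3836) for RafGOFNotchDN against WT and 1504 to 4347 (2392) for RafGOFNotchIC against WT. The cause of these shifts was not tested. Signals near the array medians, such as those of DptB in WT, limit what can be read as a level.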
